A study of Mus musculus with 2 samples.

Results

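Aire, Fezf2, Cd80, Cd86, Cd40, Tnfrsf11a and Cd52 were followed as 7 of the 55487 genes counted in single cells of the C57BL/6 mouse thymus, its medullary epithelial cells (mTEC). They were taken by symbol from a list chosen with earlier results of these data known, and each symbol matched 1 gene. The sorted population was labelled mTEClo and Pdpn-CD104-, from thymi digested with enzymes and depleted of cells with CD45. The 3 Hnf4ctrl samples were Foxn1(cre/+) Hnf4a(fl/+) Hnf4g(+/-) and the 4 Hnf4dTEC samples were Foxn1(cre/+) Hnf4a(fl/fl) Hnf4g(-/-), so the control samples also carried the Cre driver of thymic epithelium, 1 floxed Hnf4a copy and 1 null Hnf4g copy. The age of the mice and the number of animals per sample were not given in the sources used here, so each p-value below measures the spread between these samples alone, which may be technical.

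In the thymic medulla, epithelial cells show developing T cells the proteins of the rest of the body. Aire is a chromatin-associated regulator that lets mTEC transcribe genes of peripheral tissues, and Fezf2 is a zinc finger transcription factor that drives another set of such genes. Tnfrsf11a encodes RANK and Cd40 encodes CD40, receptors of the TNF receptor family that receive ligands from T cells and lymphoid cells and signal through NF-kB toward mTEC maturation and Aire expression. Cd80 and Cd86 encode the costimulatory ligands of CD28 and CTLA-4 on T cells, and Cd52 encodes a small surface glycoprotein anchored in the membrane by a lipid, best known from lymphocytes.

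The deposited cell table gave 9185 cells a sample and 1 of 15 classes, 3295 cells in control and 5890 in mutant samples. Each sample held 10127838 to 25821970 UMIs (unique molecular identifiers, each marking 1 captured RNA molecule), with a median of 11528 to 15053 per cell. No cell barcode occurred more than 1 time. Each level below is a sample's UMI count of the gene per 1000000 UMIs (CPM) over all cells of 1 class, given for samples with at least 10 cells of that class. The 7 genes for thymic epithelium summed to 2852 to 3712 CPM in controls and 2900 to 3301 CPM in mutants, with Epcam at 937 CPM and Krt8 at 1660 CPM over all cells. The gate gene Pdpn was at 5.15 CPM and Itgb4, which encodes CD104, at 36.0 CPM. H2-Aa, an MHC class II gene, was at 1492 CPM over all cells and 4886 CPM in the Aire-expressing class, although the sort was labelled by low MHC.

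On build mm10, Aire lies on chromosome 10 from 78030022 to 78043610 on the minus strand. Fezf2 lies on chromosome 14 from 12342094 to 12348189 on the minus strand. Cd80 (from 38455561 to 38496335, plus strand) and Cd86 (from 36603869 to 36666081, minus strand) are both on chromosome 16. Cd40 lies on chromosome 2 from 165055627 to 165072948 on the plus strand. Tnfrsf11a lies on chromosome 1 from 105780718 to 105847981 on the plus strand, and Cd52 on chromosome 4 from 134082448 to 134095082 on the minus strand. The annotated Aire gene overlaps Dnmt3l on the other strand, which had 1076 UMIs in the annotated cells, and Cd52 overlaps Crybg2 on the other strand, which had 463. How the counting used strand was not given in the sources used here, so a share of reads in these pairs may be exchanged.

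The promoter windows of the 2 transcriptional regulators are printed because Aire and Fezf2 shared their leading classes (Pearson r 0.79 over 15 classes, a description). Each window runs from 250 bases before to 50 after the RefSeq start of the gene, on build GRCm38.p6, read 5′ to 3′ on the gene's strand. Aire is at chr10:78043561-78043860 and Fezf2 at chr14:12345816-12346115, both on the minus strand. The windows of Fezf2 and of Cd80 (chr16:38458683-38458982) lie inside the gene positions given above. For these 2 genes the RefSeq start is thus not the outermost annotated start, and the sequence before that outermost start was not searched.
Aire: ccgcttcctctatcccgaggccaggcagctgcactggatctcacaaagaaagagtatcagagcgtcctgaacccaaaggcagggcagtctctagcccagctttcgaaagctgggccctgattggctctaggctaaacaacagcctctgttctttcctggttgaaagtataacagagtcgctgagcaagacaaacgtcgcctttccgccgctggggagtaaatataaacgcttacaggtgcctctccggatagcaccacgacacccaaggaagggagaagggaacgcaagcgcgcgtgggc
Fezf2: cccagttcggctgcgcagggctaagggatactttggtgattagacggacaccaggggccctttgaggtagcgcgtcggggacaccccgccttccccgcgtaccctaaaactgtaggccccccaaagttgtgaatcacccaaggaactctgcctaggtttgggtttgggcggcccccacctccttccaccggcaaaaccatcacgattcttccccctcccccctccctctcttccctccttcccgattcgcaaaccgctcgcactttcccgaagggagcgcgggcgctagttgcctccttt
A motif of the NF-kB kind, GGNNTTTCC on either strand, was searched because NF-kB factors lie downstream of RANK and CD40, and would stand in capitals. As 1 fixed pattern, it misses NF-kB sites with other letters. It was not in either window, nor in those of Cd80 and Tnfrsf11a, and it was in 5.82% of 32851 promoter windows of the same length. The GC content was 55.3% for the Aire window, 61.3% for Fezf2, 49.7% for Cd80 and 76.7% for Tnfrsf11a. The promoters of Cd86, Cd40 and Cd52 were not used here.

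Aire was read mainly in 4 classes. The Aire-expressing class, 785 cells, held 50.1% of its 22269 UMIs at 764 ± 23.1 CPM (SD, n = 7), with 737, 770 and 755 CPM in controls 1 to 3 and 743, 768, 808 and 766 CPM in mutants 1 to 4 (samples are given in this order throughout). This range did not overlap that of the next class, TA, at 439 ± 66.3 CPM. The Transitional class had 357 ± 49.6 CPM and the Aire-adjacent class 257 ± 80.1 CPM, and the ranges of TA, Transitional and Aire-adjacent cells overlapped from each class to the next. The Microfold class followed at 89.6 ± 59.6 CPM (n = 6), and there 1 mutant sample was at 206 CPM while the others were between 38.4 and 90.1 CPM. In that sample 1 cell held 32 of the 59 Aire UMIs. Immature cells had 13.0 ± 6.28 CPM, from at most 1 UMI in any cell, and Secretory cells 12.3 ± 4.43 CPM, from at most 2. Tuft cells had 11.2 ± 1.44 CPM, the lowest of the 11 classes with enough cells in at least 3 samples of each genotype. Whether these low levels are free RNA in droplets was not tested.

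**Figure D1:**
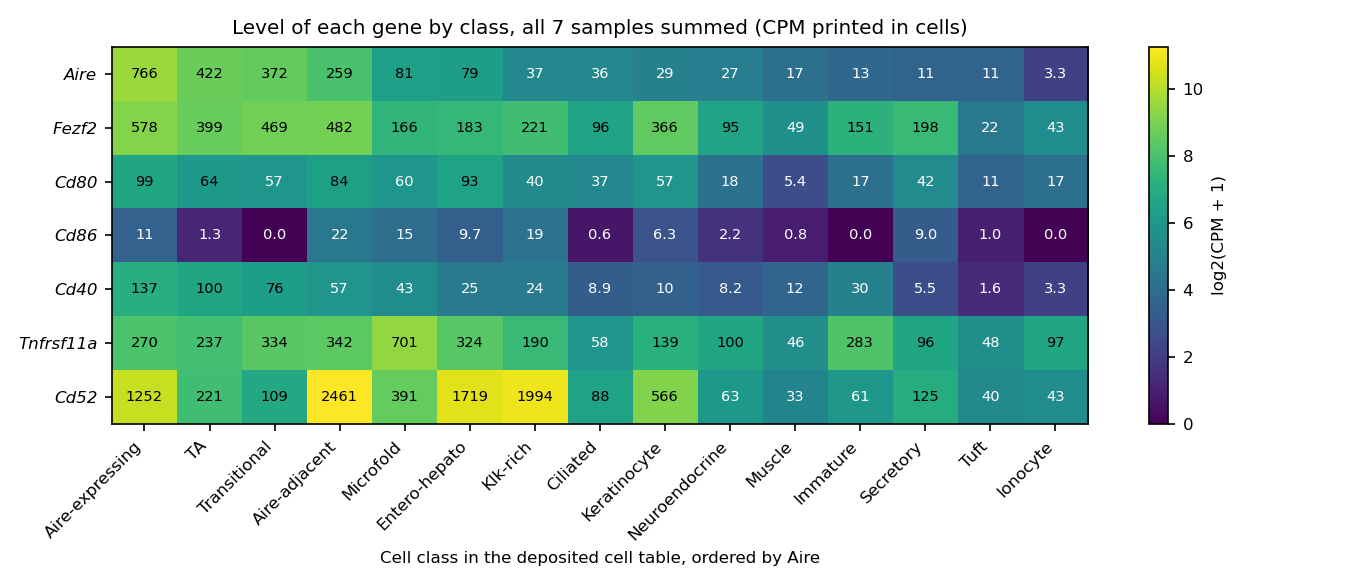
Level of the 7 genes (rows) in the 15 classes (columns, ordered by Aire), as CPM over all 7 samples summed, with colour on a log2(CPM + 1) scale. Aire and Cd40 fall from the Aire-expressing class through TA and Transitional to Aire-adjacent cells, Tnfrsf11a is highest in Microfold cells, and Cd52 is highest in Aire-adjacent cells.

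Fezf2 spanned more classes than these 4. It was at 584 ± 43.9 CPM in Aire-expressing, 497 ± 76.0 CPM in Aire-adjacent, 465 ± 54.8 CPM in Transitional, 411 ± 41.8 CPM in TA and 371 ± 48.2 CPM in Keratinocyte cells (n = 7 each). These 5 classes overlapped from each to the next, and the 5 together stood above the Secretory class at 190 ± 52.9 CPM without overlap. Klk-rich cells, outside this order, had 223 CPM in 1 control sample and 127 to 412 CPM in 4 mutant samples. That range overlapped both the Keratinocyte and the Secretory class. Immature cells, with little Aire, had 150 ± 25.7 CPM of Fezf2. Neuroendocrine cells had 93.5 ± 10.4 CPM, apart from Tuft cells at 22.2 ± 1.46 CPM, the lowest class.

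The NF-kB receptors differed from each other in where they were read. Cd40 had the order of Aire in its first 5 classes: 137 ± 22.6 CPM in Aire-expressing, 105 ± 25.9 in TA, 76.0 ± 16.3 in Transitional, 53.8 ± 17.9 in Aire-adjacent (n = 7 each) and 42.9 ± 16.6 CPM in Microfold cells (n = 6). Neighbouring classes in this order overlapped down to Immature cells at 30.3 ± 9.60 CPM, which stood apart from Keratinocyte cells at 10.0 ± 3.78 CPM. Tnfrsf11a was highest in Microfold cells at 687 ± 143 CPM, with 646, 840 and 820 CPM in control and 754, 591 and 473 CPM in the 3 mutant samples with enough cells. Every one of these values was above the range of Aire-adjacent cells, 288 to 410 CPM. Transitional, Immature, Aire-expressing and TA cells followed from 329 ± 33.9 to 236 ± 22.8 CPM with overlapping ranges, and Tuft cells had 48.2 ± 4.74 CPM. Outside this order, Entero-hepato cells had Tnfrsf11a at 331 and 386 CPM in 2 control samples. Immature cells thus had Tnfrsf11a at 283 ± 46.7 CPM, within the range of the Aire-expressing class at 262 ± 37.7 CPM, while the Aire ranges of the 2 classes were apart.

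Of the CD28 ligands, Cd80 was read in most classes and Cd86 in few cells. Cd80 was at 101 ± 4.85 CPM in Aire-expressing cells, with 107, 105 and 94.4 CPM in control and 98.9, 95.9, 99.9 and 104 CPM in mutant samples. Aire-adjacent (84.6 ± 25.7 CPM), TA (64.2 ± 6.85), Microfold (61.9 ± 14.4), Transitional (58.6 ± 11.4) and Keratinocyte cells (58.2 ± 6.00) followed, each overlapping the next. Outside this order, Entero-hepato cells had Cd80 at 94.7 and 126 CPM in 2 control samples, around the level of Aire-expressing cells. Cd86 was sparse, with 547 UMIs in 315 of the 9185 cells. Its highest class was Aire-adjacent at 22.2 ± 14.4 CPM, which overlapped Microfold (16.6 ± 16.3) and Aire-expressing cells (9.12 ± 5.22). Klk-rich cells, outside this order, had 8.35 CPM in 1 control sample and 14.7 to 25.4 CPM in 4 mutant samples. Cd86 had 0 UMIs in 390 Transitional and 354 Immature cells, which allows a share of cells with a UMI of up to 0.769% and 0.847% (a limit of 3 counts). Such limits cover counting error only.

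Among the classes with enough samples, Cd52 was highest outside the class that led Aire, Cd40, Fezf2 and Cd80. Aire-adjacent cells had 3194, 1871 and 3206 CPM in control and 1977, 2036, 1738 and 2860 CPM in mutant samples, or 2412 ± 648 CPM. Aire-expressing cells had 1309 ± 245 CPM and overlapped the lowest of these values, and both classes were above Keratinocyte cells at 567 ± 116 CPM. TA and Transitional cells, which had more Aire than Aire-adjacent cells by the mean, had 218 ± 43.5 and 114 ± 33.1 CPM of Cd52. In the classes with too few samples for a test, Cd52 was at 1768 CPM in 1 control sample and 1296 to 3446 CPM in 4 mutant samples of Klk-rich cells. Entero-hepato cells had 1011 and 2003 CPM in 2 control samples. A single Klk-rich cell held 441 of the 678 Cd52 UMIs of mutant sample 3.

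**Figure D2:**
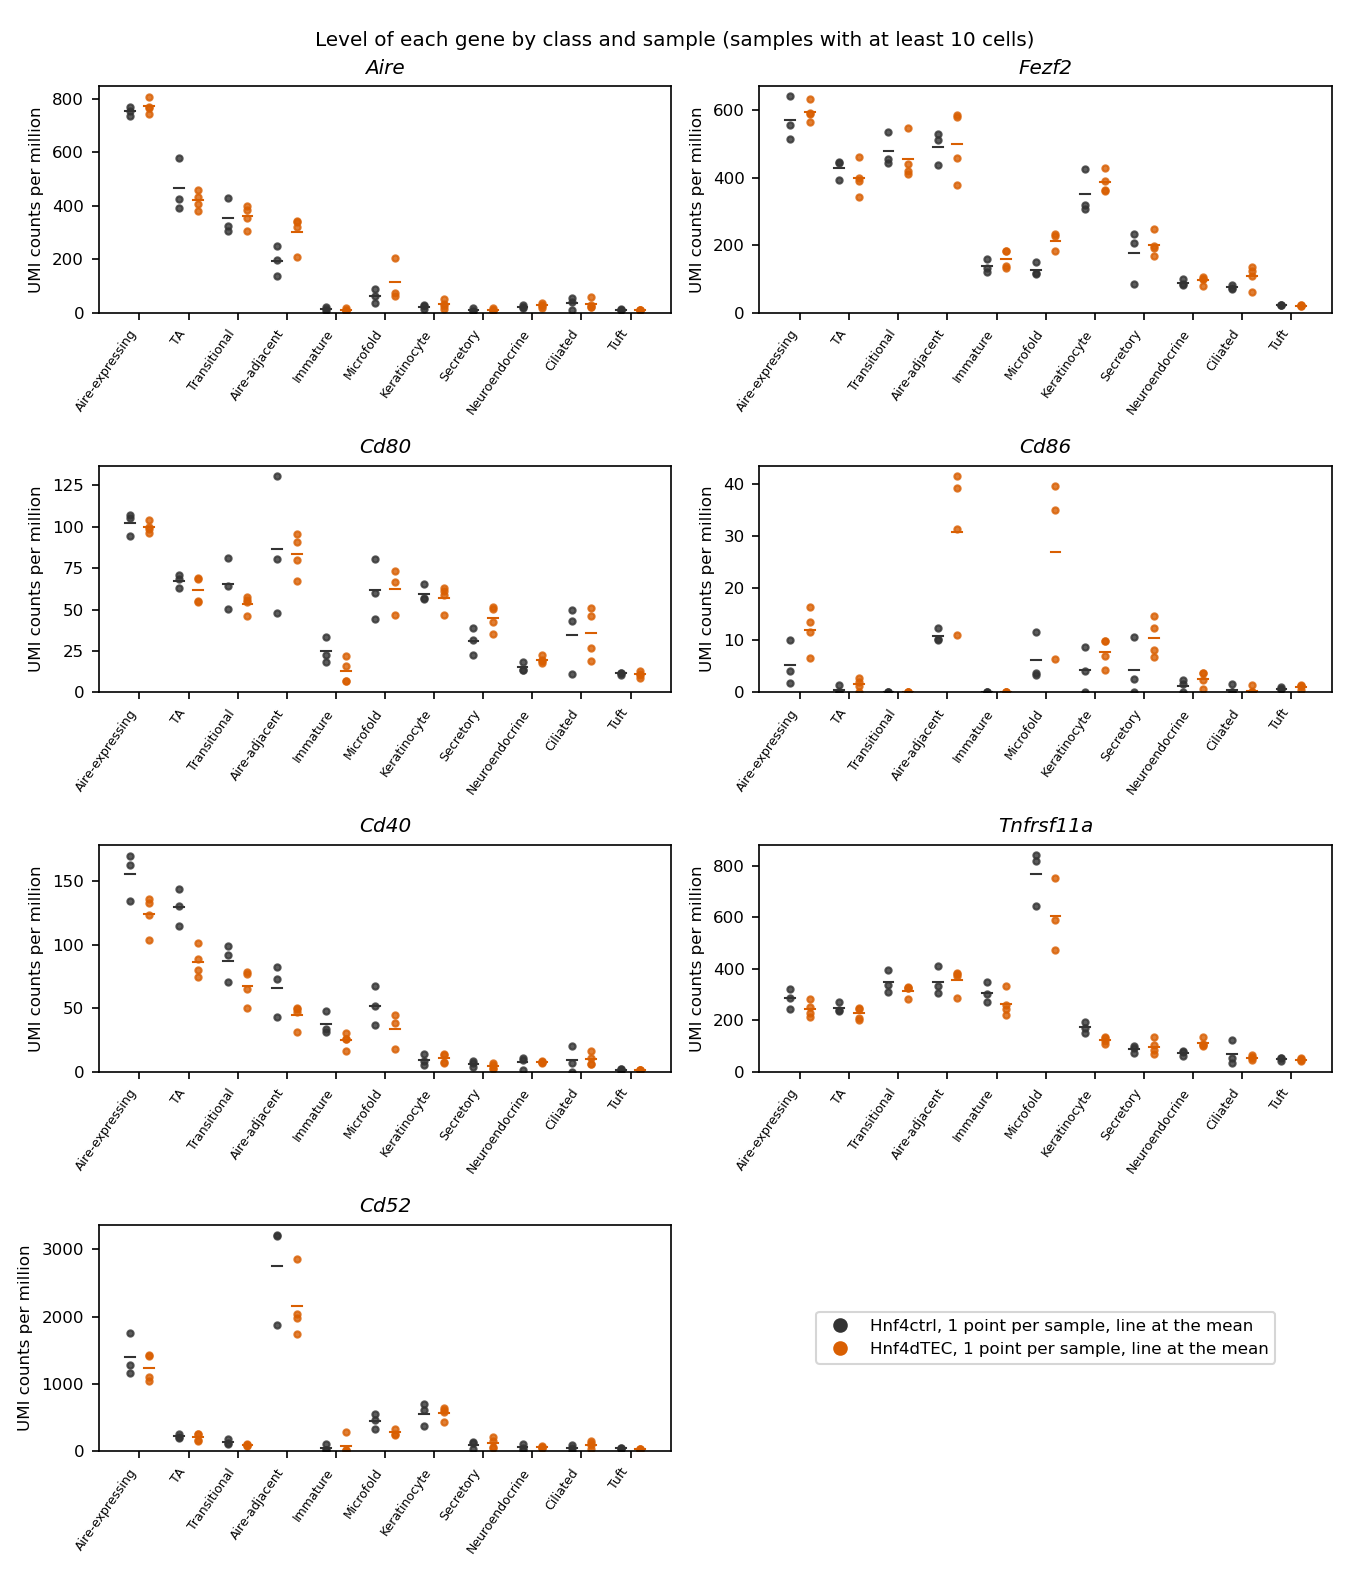
CPM of each gene (y axis, linear and starting at 0) by class (x axis), 1 point per sample with black for Hnf4ctrl and orange for Hnf4dTEC and a short line at each group's mean. The Aire-expressing class is above all others for Aire in all 7 samples, the Microfold class is above all others for Tnfrsf11a, and Cd86 points in Aire-adjacent cells reach 41.4 CPM in a mutant sample against at most 12.3 CPM in control samples.

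Over the 15 classes the patterns of Aire and Cd40 were the most alike of the 21 pairs (Pearson r 0.90 of log2(CPM + 1)), followed by Cd52 and Cd86 (0.85), Cd80 and Fezf2 (0.84) and Cd40 and Fezf2 (0.82). Cd40 and Cd86 were the least alike (0.29). All 15 classes came from 1 droplet run and were defined from expression, so these correlations describe the classes and carry no test. Of 16813 genes with at least 200 UMIs, the 5 closest to Aire were Tvp23a (0.99), Gm13539, Hebp1, Icosl (0.94), which encodes the ligand of the costimulatory receptor ICOS and lies 25692 bases from Aire, and Emc8. Those closest to Cd40 were H2-DMb2 (0.96), a chain of the molecule that loads peptides on MHC class II, CT868690.1, Ptprq, Snhg17 and Irf4 (0.92), a transcription factor of lymphocytes. Those closest to Tnfrsf11a were Gm10851, Relb (0.94), the NF-kB subunit of the pathway that RANK feeds, Rab32, H2-M2 and Slc30a2. Those closest to Cd80 were Kcnk6, Nfkbia (0.92), the inhibitor of NF-kB, Stra6, Micall2 and Bspry. Bspry (0.91) was also among the 5 closest to Fezf2, with Gm16685, Axl, a receptor tyrosine kinase, Gm42456 and S100a14. Cd86 was closest to Chac2, Gm19439, Il1rn (0.92), which encodes the antagonist of the IL-1 receptor, Sftpa1 and Gm47171, and Cd52 to 5730403I07Rik (0.92), Ly6i, Tbx21 (0.91), a transcription factor of type 1 lymphocytes, Slc15a3 and Chrnb4.

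Shares of cells with a UMI were read after each cell was thinned to 5000 UMIs, which left out 511 shallower cells. In Aire-expressing cells 86.1% ± 2.94 had an Aire UMI (93.8% before thinning), against 5.17% ± 1.12 of Tuft cells (12.9% before thinning), where median depth was 12186 UMIs per cell against 18154. Neuroendocrine cells gave 9.49% ± 3.30. Free RNA in droplets can give a UMI to a cell that lacks the transcript, so shares near those of Tuft cells were not read as expression. How much of a Tuft share is free RNA and how much is transcript of the Tuft cells was not tested. A single Tuft cell held up to 15 Tnfrsf11a UMIs and up to 170 Cd52 UMIs. In Aire-expressing cells the shares were 88.6% ± 2.08 for Cd52 (9.26% in Tuft), 76.6% ± 4.84 for Fezf2 (9.05%), 62.4% ± 4.74 for Tnfrsf11a (20.3%), 43.5% ± 4.10 for Cd40 (0.937%), 35.8% ± 6.03 for Cd80 (5.72%) and 3.79% ± 2.76 for Cd86 (0.436%). In Microfold cells 87.0% ± 7.55 had a Tnfrsf11a UMI, and in Aire-adjacent cells 81.3% ± 4.95 had a Cd52 UMI and 45.8% ± 11.6 an Aire UMI (n = 7, or 6 for Microfold).

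Cells with an Aire UMI were then set against the other cells of the same class and sample. The Aire-expressing class was planned, and TA, Transitional and Aire-adjacent cells were added after their levels were seen. In Aire-expressing cells Cd80 was found in 36.2% ± 6.37 of the cells with an Aire UMI and 25.9% ± 5.24 of those without, higher with Aire in 6 of 6 samples (those with at least 10 cells on each side). Cd52 was at 88.4% ± 2.21 and 89.4% ± 6.50 there, higher with Aire in 3 of 6 samples. In Aire-adjacent cells Cd80 was in 40.9% ± 11.0 and 22.8% ± 4.53, and Cd52 in 90.9% ± 4.43 and 72.9% ± 10.7, both higher with Aire in 7 of 7 samples. Transitional cells gave Cd52 in 33.5% ± 9.39 and 15.0% ± 13.1, higher in 7 of 7 samples, and Cd80 in 23.0% ± 6.01 and 18.2% ± 7.92, higher in 4 of 7. TA cells gave Cd40 in 40.6% ± 5.60 and 18.8% ± 13.6 and Cd80 in 29.3% ± 8.97 and 15.8% ± 5.91, both higher in 5 of 5 samples, while Cd52, in 46.5% ± 6.15 and 34.6% ± 14.6, was higher in 3 of 5. Tnfrsf11a was at 60.7% ± 5.98 and 58.8% ± 9.41 in TA cells and 72.7% ± 7.37 and 72.4% ± 9.54 in Transitional cells, higher with Aire in 2 of 5 and 3 of 7 samples. In Aire-adjacent cells Tnfrsf11a was at 75.6% ± 15.7 and 56.3% ± 10.6, higher with Aire in 6 of 7 samples, and in Aire-expressing cells at 63.5% ± 5.63 and 54.6% ± 18.4, higher in 5 of 6. In Aire-expressing cells Cd40 was at 44.8% ± 3.66 and 34.1% ± 13.5, higher with Aire in 5 of 6 samples. Cd40 was higher in 6 of 7 Transitional (means 29.3% and 20.2%) and 5 of 7 Aire-adjacent samples (25.6% and 15.4%). Fezf2 was higher with Aire in 5 of 6 Aire-expressing, 4 of 5 TA, 5 of 7 Transitional and 5 of 7 Aire-adjacent samples. For Cd86 it was 4 of 6 Aire-expressing, 3 of 5 TA and 3 of 7 Aire-adjacent samples. In TA cells a Cd86 UMI was in 5 of 358 cells with an Aire UMI and 0 of 111 without. Transitional cells held 0 Cd86 UMIs, so no sample there could be higher with Aire. These shares were not tested, since cells of 1 class can differ in state as well as in Aire.

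**Figure D3:**
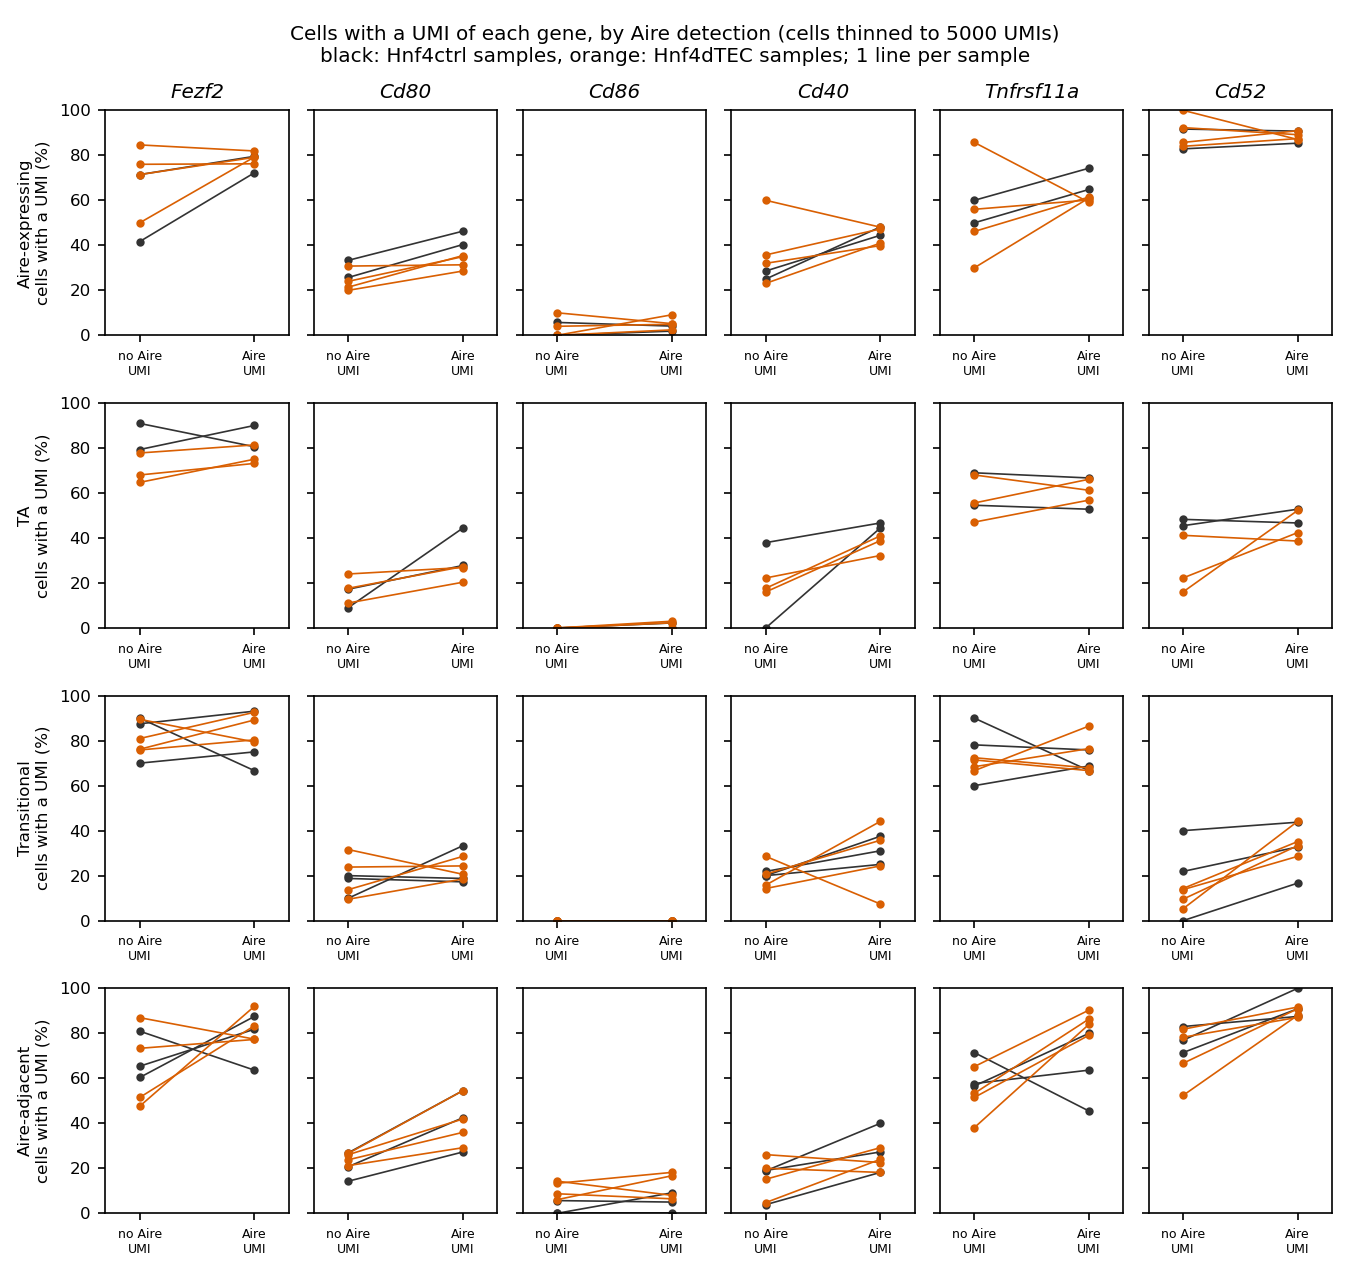
Percent of cells with a UMI of each gene (columns; y axis 0 to 100) among cells without and with an Aire UMI, in 4 classes (rows), 1 line per sample with black for Hnf4ctrl and orange for Hnf4dTEC, after thinning to 5000 UMIs per cell. For Cd80 the cells with an Aire UMI have the higher share in all samples shown of the Aire-expressing, TA and Aire-adjacent classes and in 4 of 7 Transitional samples. Tnfrsf11a is higher in 6 of 7 Aire-adjacent, 5 of 6 Aire-expressing, 3 of 7 Transitional and 2 of 5 TA samples.

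Markers of other cell types were read beside these genes. In Aire-adjacent cells the 11 dendritic or myeloid genes summed to 1638 to 2744 CPM in control and 1889 to 3082 CPM in mutant samples, above 462 to 666 CPM and 480 to 556 CPM over all cells. Lyz2, which encodes lysozyme, was at 1577 CPM and Laptm5, a lysosomal protein of blood cells, at 663 CPM, while Itgax and Adgre1, which define dendritic cells and macrophages, were at 0 there (0.195 and 2.05 CPM over all cells). Fcer1g (49.9 against 10.1 CPM), Csf1r (16.2 against 3.67), Xcr1 (4.52 against 0.465), Flt3 (1.64 against 0.863) and Cd68 (7.80 against 5.12) were also higher in Aire-adjacent cells than over all cells, and Tyrobp (1.64 against 2.21) and Itgam (0.411 against 3.78) lower. These 11 genes summed to 832 to 1206 CPM in control and 919 to 1367 CPM in mutant samples of Aire-expressing cells. Microfold cells had 642 to 1922 and 622 to 1028 CPM, so their control range overlapped that of Aire-adjacent cells. Thymocyte genes summed to 40.5 to 104 CPM and B cell genes to 28.6 to 87.2 CPM in the Aire-adjacent class. Of the 52 Aire-adjacent cells with a Cd86 UMI, 0 had a UMI of Ptprc, which encodes CD45, and of the 74 such Aire-expressing cells 2 had one. UMIs of at least 3 of the dendritic or myeloid genes were in 58.1% of those 74 cells against 33.3% of the 711 Aire-expressing cells without Cd86, and UMIs of at least 2 B cell genes in 23.0% against 9.56%, at median depths of 18216 and 18154 UMIs. In Aire-adjacent cells these were 13.5% of the 52 against 23.7% of 337 cells for the myeloid and 9.62% against 6.82% for the B cell genes. Ptprc itself was in 26.0% of Tuft cells and between 0.769% and 3.99% of the cells of every other class. Without the 1198 cells with a Ptprc UMI the levels of 75 of 77 gene and class pairs moved by less than 1 SD between samples, the exceptions being Fezf2 (24.3 CPM) and Tnfrsf11a (42.8 CPM) in Tuft cells. The part of these markers in the Cd52 and Cd86 levels was not tested further.

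The comparison of genotypes asked whether the 7 genes differed between Hnf4a(fl/fl) Hnf4g(-/-) and Hnf4a(fl/+) Hnf4g(+/-) samples, all with the Cre driver. Only Hnf4a was floxed, so the lack of Hnf4g in mutants was not limited to thymic epithelium. None of the 7 genes passed the test. Over all cells, edgeR's quasi-likelihood test called 0 of the 7 members at an adjusted p under 0.05, against a background of 0.184% of the 21187 genes tested. At an unadjusted p under 0.05 it was 1 of the 7 members, against 6.65% of all genes. Aire was at 96.4, 143 and 226 CPM in controls and 126, 138, 168 and 212 CPM in mutants. Its log2 fold change, mutant over control, was 0.06 (SE 0.29, edgeR adjusted p = 1.00). The share of cells in the Aire-expressing class moved with these values, at 3.50%, 7.43% and 13.1% in controls and 5.87%, 6.46%, 8.47% and 12.4% in mutants. Sums over all cells cannot tell such shares from a change per cell, which is why classes were tested on their own. Fezf2 had a log2 fold change of 0.02 (SE 0.17) and Cd80 of -0.12 (SE 0.15). The receptor genes were lower by the mean, with Tnfrsf11a at 165 ± 28.5 CPM in control and 136 ± 13.6 CPM in mutant samples (-0.28, SE 0.12, edgeR adjusted p = 0.761) and Cd40 at 39.3 ± 15.5 and 30.1 ± 7.39 CPM (-0.39, SE 0.28, edgeR adjusted p = 0.936, and a log2 fold change of -0.035 without control sample 3). Cd52 was at 409 ± 149 and 325 ± 56.2 CPM (-0.32, SE 0.23, adjusted p = 0.943).

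Cd86 was the one member whose samples did not overlap over all cells. The controls had 1.58, 2.36 and 3.80 CPM and the mutants 5.23, 4.87, 4.07 and 4.76 CPM, from 143 and 404 UMIs in all. This made 0.84 on the log2 scale (SE 0.28, edgeR adjusted p = 0.550), and 7.89% of all genes tested had samples that did not overlap. Leaving out 1 sample gave 0.60 to 1.26, the latter without control sample 3.

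**Figure D4:**
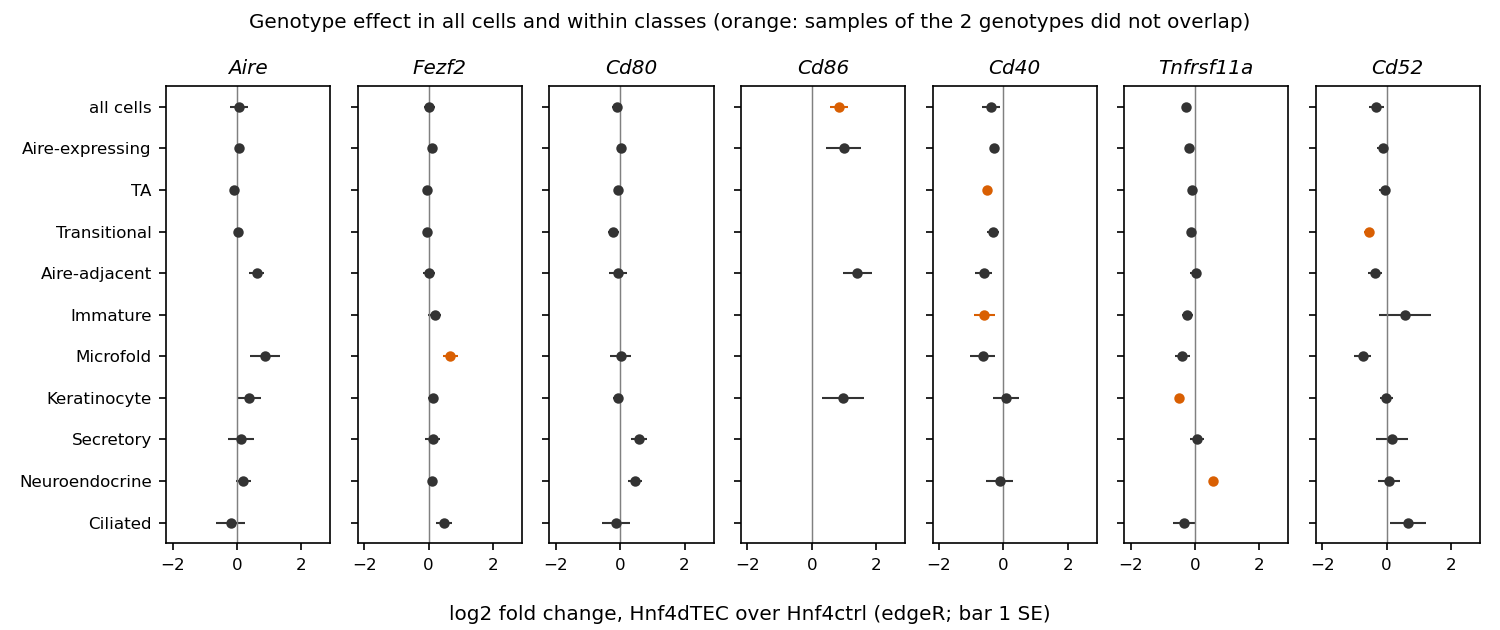
Log2 fold change of each gene (panels; x axis, mutant over control, with a bar of 1 SE) over all cells and within the 10 tested classes (y axis), with orange where the CPM of the genotypes did not overlap and no point where a gene was under the filter. Cd86 lies to the right of 0 in all 4 comparisons that tested it and Cd40 to the left of 0 in all cells and 7 of 8 classes, and no point passed the test.

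Within the 10 classes that had at least 10 cells in 3 samples of each genotype and a member above 50 CPM, 59 tests of a member passed the filter on low counts, and 0 were called. At an unadjusted p under 0.05 there were 10 of the 59, against 6.02% of the 94442 tests of all genes in these classes, and the 59 share the same 7 samples. DESeq2 was run on all genes that passed the same filter. Its results were read for the 7 members over all cells, the 7 in Aire-expressing cells and these 10. It called 0 of these 24 (lowest DESeq2 adjusted p 0.237), and its results for members in the other class tests were not read. The background was 0% of the genes tested in Aire-adjacent, Aire-expressing, Ciliated, Immature, TA and Transitional cells, where 5.42%, 5.15%, 2.65%, 3.86%, 3.94% and 5.03% had an unadjusted p under 0.05. It was 0.0799% in Keratinocyte, 3.03% in Microfold, 0.389% in Neuroendocrine and 0.0314% in Secretory cells, with 7.30%, 16.3%, 8.32% and 6.67% at an unadjusted p under 0.05. The samples did not overlap for 0 of 7 members in Aire-adjacent (background 6.55%) and in Aire-expressing cells (6.69%), and for 0 of 5 in Ciliated (4.60%) and Secretory cells (8.28%). They did not overlap for 1 of 4 members in Immature (5.08%), 1 of 7 in Keratinocyte (7.88%), 1 of 6 in Microfold (22.0%), 1 of 6 in Neuroendocrine (9.02%), 1 of 6 in TA (5.87%) and 1 of 6 in Transitional cells (6.65%). With 4 to 7 members a class, such a count is too small to set against its background.

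In the Aire-expressing class, which held the most Aire, none of the 7 genes passed. Aire had a log2 fold change of 0.07 (SE 0.06, adjusted p = 1.00), Fezf2 of 0.11 (SE 0.09) and Cd80 of 0.01 (SE 0.09), so the SE of each was under 0.1. Cd40 was at 170, 134 and 163 CPM in control and 103, 136, 132 and 123 CPM in mutant samples (-0.28, SE 0.14, adjusted p = 0.995), with ranges that overlapped by 1 control sample. Tnfrsf11a (-0.19, SE 0.13) and Cd52 (-0.11, SE 0.17) also missed the test.

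Cd40 had a negative log2 fold change in 7 of the 8 classes that tested it, from -0.64 in Microfold to 0.09 in Keratinocyte cells. In TA cells it was at 143, 130 and 115 CPM in control and 88.3, 74.7, 101 and 79.7 CPM in mutant samples, so every mutant sample was below every control sample. This made -0.52 on the log2 scale (SE 0.12, unadjusted p = 0.00094, edgeR adjusted p = 0.794), and without the filter on low counts the adjusted p was 0.0056. The run without the filter called 192 genes in TA cells, against 0 with it. Immature cells also gave Cd40 ranges apart, at 33.5, 48.0 and 31.1 against 25.9, 16.4, 30.9 and 26.2 CPM (-0.59, SE 0.32, adjusted p = 0.999). The 8 classes come from the same 7 samples and are not independent of each other.

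Tnfrsf11a went opposite ways in 2 classes. Keratinocyte cells had 170, 195 and 152 CPM in control and 109, 131, 135 and 119 CPM in mutant samples (-0.50, SE 0.12, edgeR adjusted p = 0.262). Neuroendocrine cells had 61.5, 78.6 and 83.0 CPM in control and 134, 108, 104 and 101 CPM in mutant samples (0.57, SE 0.14, edgeR adjusted p = 0.166), and the adjusted p was 0.0042 without the filter on low counts. The run without the filter called 419 genes in Neuroendocrine cells, against 44 with it. In both classes the samples did not overlap. The difference between the 2 effects, tested in 1 edgeR model over both classes with each sample as a block, was 1.08 on the log2 scale (SE 0.21, unadjusted p = 0.00021, adjusted p = 0.201), and 0% of the 12832 genes in that model were called. That test was added after the opposite directions were seen. In Microfold cells, where Tnfrsf11a was highest, the effect was -0.39 on the log2 scale (SE 0.22, edgeR adjusted p = 0.432).

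Cd86 was tested in 3 classes and had a positive log2 fold change in each. In Aire-adjacent cells it was at 10.1, 10.2 and 12.3 CPM in control and 41.4, 31.2, 11.0 and 39.1 CPM in mutant samples, from 25 and 82 UMIs (1.41, SE 0.45, edgeR adjusted p = 0.605, and 0.0456 without the filter on low counts). The run without the filter called 279 genes in Aire-adjacent cells, against 0 with it. A single cell held 23 of the 35 Cd86 UMIs of mutant sample 1. The thinned share of Aire-adjacent cells with a Cd86 UMI was 2.69% ± 2.69 in control (n = 3) and 11.3% ± 3.66 in mutant samples (n = 4). The fold change was 1.00 (SE 0.54) in Aire-expressing and 0.97 (SE 0.66) in Keratinocyte cells on the log2 scale, and in Aire-expressing cells it was 0.61 without control sample 2 and 2.27 without control sample 3.

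The other members with an unadjusted p under 0.05 were in 4 classes. Aire in Aire-adjacent cells was at 197, 139 and 248 CPM in control and 208, 319, 344 and 341 CPM in mutant samples (0.61, SE 0.24, edgeR adjusted p = 0.813). Fezf2 in Microfold cells was at 116, 117 and 152 against 226, 234 and 182 CPM, with no overlap (0.67, SE 0.24, edgeR adjusted p = 0.167). Cd52 in Microfold cells was at 334, 472 and 559 against 338, 245 and 265 CPM (-0.74, SE 0.25, edgeR adjusted p = 0.154). Cd52 in Transitional cells was at 113, 180 and 131 against 105, 81.2, 90.6 and 98.3 CPM, with no overlap (-0.55, SE 0.16, edgeR adjusted p = 0.964), although 1 cell held 34 of the 39 UMIs of control sample 1. Cd80 in Secretory cells (0.58, SE 0.25, edgeR adjusted p = 0.746) and Cd40 in Aire-adjacent cells (-0.61, SE 0.26, edgeR adjusted p = 0.872) completed these.

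The partners and pathway of the members were read from 4 lists. Of the 23 genes of RANK, CD40 and lymphotoxin receptor signalling to NF-kB, 22 were tested over all cells, 0 were called in either direction, and the median log2 fold change was -0.13 against 0.00 over all genes. 3 of the 22 had a positive sign, in sums that cannot tell class shares from a change per cell. Within classes the positive signs ran from 3 of 20 in TA to 10 of 16 in Microfold cells. The class medians ran from -0.27 in Ciliated to 0.09 in Microfold cells. Over all cells the lowest edgeR adjusted p of the 22 was 0.367, that of Ltb, the membrane partner of lymphotoxin (62.1 CPM in control and 71.9 CPM in mutant samples). Tnfrsf11b, which encodes osteoprotegerin, the decoy for the RANK ligand, was at 85.6 and 61.8 CPM (-0.47, SE 0.14, edgeR adjusted p = 0.470). Of the 15 costimulatory and coinhibitory ligands 0 were called (median -0.04, from -0.34 to 1.22, 6 of 15 with a positive sign). Cd274, which encodes PD-L1, was at -0.15 and Pdcd1lg2, which encodes PD-L2, at -0.30. Vtcn1, a coinhibitory ligand, was at 0.75 (SE 0.30, edgeR adjusted p = 0.715, 2.91 and 4.89 CPM, no overlap) and Tnfsf4, which encodes the OX40 ligand, at 1.22 (SE 0.61, edgeR adjusted p = 0.839, 0.258 and 0.630 CPM). Of 22 partners of Aire and Fezf2, 0 were called and the median was 0.05, and of 5 tested tissue antigens 0 were called with a median of -0.06. Ltb, Tnfrsf11b, Cd274, Pdcd1lg2, Vtcn1 and Tnfsf4 were named after their values were seen. The same lists held 0 called genes in the Aire-expressing class, with medians of -0.07, -0.05, -0.05 and -0.06. The lists for thymocyte, B cell, dendritic or myeloid, proliferating, thymic epithelium and gate genes also held 0 called genes over all cells, with medians of 0.21, -0.02, -0.13, -0.18, -0.08 and -0.08.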

How the data were processed

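The deposited matrix held UMI counts, whole numbers per gene and droplet barcode, made by the authors with Cell Ranger. Per the submitters' processing notes it was Cell Ranger 6.1.0 with Seurat 4.0.2 on build mm10, while the matrix header names Cell Ranger 7.0.0. The authors' deposited cell table gave each of 9185 of the 18089 barcodes a class and a hash tag, whose labels gave sample and genotype. By genotype the groups hold different animals, and whether they share litters was not given. Members and gene lists were chosen with earlier results of these data known. Gene positions came from GENCODE mouse release 21, which held 54435 of the 55487 gene identifiers, and members were matched by symbol and identifier.

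For each sample, counts were added up over its cells, or over its cells of 1 class, and tested two-sided with the quasi-likelihood method in edgeR 4.0.16 (R 4.3.3) after filterByExpr and TMM scaling, with Benjamini-Hochberg adjustment over all genes tested and a threshold of 0.05. The printed CPM of members and cell type markers used total UMIs without TMM. The printed CPM of Ltb, Tnfrsf11b, Vtcn1 and Tnfsf4, and the calls of overlap between genotypes, used TMM-scaled totals. The 5 genes most like a member by r over classes, every member, and any called gene of the lists were to be named. Doublets were not called: 293 cells with a second hash tag above 20% of hash UMIs were left out in an alternative. Other alternatives were DESeq2 1.42.0, limma 3.58.1 on samples weighted to the same class mix, no low-count filter, thinning to 8000 UMIs (1484 cells were shallower) and leaving out each sample. Scripts were tested on simulated data. Sequences came from RefSeq tables, in which 4 of the 7 members had a promoter window; no protein sequences were used here.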

Additional observations from a re-analysis of the deposited data

Results flagged for a closer look

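In 89 groups of 4 mutant samples, 1 sample stood far from the other 3 in 7, by Dixon's gap test at its 95% critical value; chance gives about 1 in 20 groups. Cd52 in Immature cells was at 290 CPM in mutant sample 2 against 13.0 to 22.7 CPM, and 1 cell held 100 of its 106 UMIs. Cd40 in Aire-adjacent cells was at 31.2 CPM in mutant sample 2 against 47.3 to 50.3 CPM. Tnfrsf11a in Aire-adjacent cells was at 288 CPM in mutant sample 1 against 373 to 385 CPM, and in Transitional cells at 283 CPM in mutant sample 3 against 324 to 331 CPM. Cd52 in Tuft cells was at 25.4 CPM in mutant sample 1 against 40.6 to 42.5 CPM. Cd86 was at 1.40 CPM in Ciliated and 3.18 CPM in Muscle cells of mutant sample 1, from 1 UMI each, with 0 in the other 3 samples.

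The genotype effect on Tnfrsf11a was 0.57 in Neuroendocrine and -0.50 in Keratinocyte cells on the log2 scale, with all mutant samples above all control samples in the first and below them in the second; the test of the difference had an edgeR adjusted p of 0.201.

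The 8904 barcodes without annotation, with a median of 5453 UMIs, had no sample or class and entered no comparison. They held Aire at 186 CPM (167 CPM in annotated cells), Fezf2 at 209.8 CPM (211), Cd80 at 38.8 CPM (39.0), Cd86 at 3.61 CPM (4.10), Cd40 at 36.5 CPM (35.3), Tnfrsf11a at 157 CPM (149.8) and Cd52 at 399 CPM (373). Each was above the limit that a count of 0 allows, and free RNA, doublets and unlabelled cells were not separated in them.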

How the results depend on the processing

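No member was called over all cells under any alternative run. Over all cells, leaving out 1 sample gave log2 fold changes of -0.19 to 0.44 for Aire, -0.14 to 0.22 for Fezf2, -0.26 to 0.0089 for Cd80 and -0.47 to 0.017 for Cd52, while Cd40 (-0.62 to -0.035), Tnfrsf11a (-0.39 to -0.14) and Cd86 (0.60 to 1.26) kept their sign. Aire and Fezf2 were at -0.19 and -0.14 without control sample 1. Within Aire-expressing cells the ranges were -0.028 to 0.039 for Cd80 and -0.23 to 0.067 for Cd52, and 0.61 to 2.27 for Cd86, -0.38 to -0.20 for Cd40 and -0.29 to -0.063 for Tnfrsf11a. Without the Aire-expressing class, Aire was at -0.050 and Fezf2 at -0.065 over all cells. Calls without the filter on low counts were those of Cd86 in Aire-adjacent (1.43), Tnfrsf11a in Neuroendocrine (0.59) and Cd40 in TA cells (-0.51). In the same runs the genes called among all genes went from 0 to 279, from 44 to 419 and from 0 to 192. The cause of these changes was not tested. Of 269 recomputed fold changes of members 249 kept their direction and side of the threshold, as did 765 of 770 levels within 1 SD.

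The number of genes called over all cells, 39, was 233 by DESeq2, 81 without the Aire-expressing class, 59 with weighted classes (limma) and 2 to 31 without 1 sample. DESeq2 called 25 in Aire-adjacent and 40 in Aire-expressing cells (0 by edgeR), 51 in Keratinocyte (9 by edgeR), 82 in Neuroendocrine (44), 28 in Secretory (3) and 1 in TA cells. Without the filter there were 279 in Aire-adjacent, 164 in Ciliated, 54 in Immature, 326 in Keratinocyte, 602 in Microfold (141 with it), 419 in Neuroendocrine, 269 in Secretory, 192 in TA and 115 in Transitional cells. Leaving out 1 sample gave 0 to 9 in Aire-adjacent, 0 to 2 in Immature, 2 to 18 in Keratinocyte, 28 to 95 in Microfold, 10 to 42 in Neuroendocrine, 0 to 6 in Secretory, 0 to 1 in TA and 0 to 2 in Transitional cells.

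The labels do not say that equal sample numbers mark shared litters. The deviations of samples numbered 1, 2 and 3 correlated at 0.49, 0.19 and -0.081 across genes, and pairs with unequal numbers at -0.64 to 0.68. With the replicate number as a block over samples 1 to 3, 7 genes were called over all cells (also 7 without a block when mutant sample 4 was left out), 14 in Keratinocyte, 73 in Microfold, 1 in Secretory and 1 in TA cells, while Aire was at -0.021 and Fezf2 at -0.014 over all cells and Cd80 at -0.0043 in Aire-expressing cells.

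Depth limits Cd86 most: of its 547 UMIs, 107 were in Aire-adjacent cells, and its level in a class of 1 sample rests on 1 to 45 UMIs in Aire-adjacent, Aire-expressing and Microfold cells. Shares of cells moved with the thinning depth by more than 1 SD in 49 of 77 cases at 8000 UMIs and in 69 of 77 without thinning.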
